A study of Mus musculus with 12 samples.

Results

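Microglia are the resident macrophages of the brain. Their RNA was read here through 39 genes: surface receptors and adaptors that mark resting microglia, the 3 chains of complement C1q, the growth factor receptor and transcription factors that maintain the lineage, and Toll-like receptors with the proteins that present or degrade bacterial lipopolysaccharide. A gene was taken when a probe set of the array carried its symbol and no other, and where several did, that with the highest 12-array mean stood for it. All 39 genes were found, each with exactly 1 such set, among 19938 genes with a set of their own.

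The arrays measured total RNA of the striatum of 90-day-old male mice in 4 groups of 3. The groups were HdhQ111/Q111/mGluR5-/- (Q111 without mGluR5), HdhQ111/Q111/mGluR5+/+ (Q111 with mGluR5), HdhQ20/Q20 and mGluR5-/- (Q20 without mGluR5) and HdhQ20/Q20/mGluR5+/+ (Q20 with mGluR5). Both copies of the Huntington's disease gene were knock-in copies in every mouse, so that the Q20 mice were the controls for the expanded Q111 allele and no group had an unaltered gene. The labels give 1 mixed background (129 * CD-1 * C57BL/6 * FV) for all of them. Whether each array is a separate animal is not stated, and the p-values describe only the spread among these samples. The striatum was whole tissue, in which fewer microglia and less RNA per microglial cell cannot be told apart.

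Microglia depend on signalling through the receptor Csf1r and on the transcription factors PU.1 (Spi1) and Irf8. They survey the tissue with receptors for nucleotides, the chemokine fractalkine and lipids, and they tag and clear material through C1q and the complement receptor formed by Itgam and Itgb2. Toll-like receptors recognise microbial lipoproteins, lipopolysaccharide and nucleic acids. mGluR5, the product of Grm5, is a metabotropic glutamate receptor that is abundant in striatal neurons and is also found on glia.

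Values are log2 signals, in which a difference of 1 is a doubling. Array medians lay between 7.05 and 7.16, their interquartile ranges between 2.56 and 2.95, and their 25th percentiles between 5.69 and 5.94. Means at or below that 25th percentile are not told from background, and a change from or to them has no exact size. A gene was tested when it exceeded that percentile on at least 3 arrays, which 16721 genes and 38 of the 39 members did. Of the members, 32 were above it on all 12 arrays, 6 on some, and Tlr4, the lipopolysaccharide receptor, on none. The targeted gene Grm5 bore out the labels: it had 11.14, 11.09 and 10.98 in Q111 without mGluR5 against 11.96, 12.01 and 11.85 in Q111 with mGluR5, and 11.06, 10.93 and 11.17 in Q20 without mGluR5 against 11.95, 12.08 and 11.97 in Q20 with mGluR5.

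Few members passed the test, and they did so in different comparisons. A gene was called when its adjusted p from limma was below 0.05 over all 16721 genes. For the Q111 allele against Q20, 2 members were called without mGluR5 (0.885% of all genes were called) and 1 with mGluR5 (0.574% of all genes). For loss of mGluR5, 1 member was called in Q111 mice (0.275% of all genes) and 0 in Q20 mice (0.299% of all genes). In that last comparison 5 of 38 members had an unadjusted limma p below 0.05, against 6.02% of all genes. An unmoderated linear model also called 0 members there, but it called 19 genes in all, against 50 by limma. For receptor loss in Q20 mice, Spi1 was called with replicate number as a block (adjusted p = 0.0247) or each array's spread as a covariate (adjusted p = 0.0239). The members called in the main fit, without block or covariate, are 3 genes in all: Tlr1, Olfml3 and Aoah.

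Tlr1, which pairs with Tlr2 to recognise bacterial lipoproteins, was lower in striatum with the Q111 allele. Its signals were 5.24, 5.52 and 5.48 in Q111 without mGluR5 and 5.44, 5.38 and 5.35 in Q111 with mGluR5. They were 6.10, 6.16 and 6.08 in Q20 without mGluR5 and 6.14, 5.66 and 5.86 in Q20 with mGluR5. Every one of the 6 Q111 arrays was below every one of the 6 Q20 arrays, as was the case for 1.21% of all genes in either direction and for no other member. The average effect of the allele was -0.60 ± 0.08 (limma standard error, adjusted p = 0.0011), in a comparison that called 1.32% of all genes. Without mGluR5 the difference was -0.70 ± 0.11 (adjusted p = 0.00584). With mGluR5 it was -0.50 ± 0.11 (adjusted p = 0.0833) and was not called. The 2 allele effects differed by -0.20 ± 0.16 (adjusted p = 1), so no difference between them was detected. Loss of mGluR5 gave 0.02 ± 0.11 in Q111 mice (adjusted p = 1) and 0.23 ± 0.11 in Q20 mice (adjusted p = 0.902), and neither was called.

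The level of Tlr1 was low. Its mean was below the filter in both Q111 groups, and it passed the filter through the Q20 arrays alone, 5 of 12 in all, so a gene with this pattern had to differ to be tested. The call without mGluR5 held when each of the 12 arrays was left out in turn, with adjusted p between 0.00251 and 0.0485, and the average effect held likewise, between 0.000582 and 0.00433. With mGluR5 the difference was called without Q20 with mGluR5 replicate 2 (-0.61, adjusted p = 0.046). Tlr1 lies on chromosome 5, as does Htt, the gene of the knock-in, and strain alleles that travel with the knock-in cannot be told apart from its effect. Of the 10 tested genes next to Tlr1, 5 on each side, 0 were called in the average effect or in any of the 4 comparisons of 2 groups.

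Aoah, the enzyme that removes acyl chains from lipopolysaccharide, was high in a single group. Its signals were 5.47, 5.74 and 5.69 in Q111 without mGluR5, 6.48, 6.42 and 6.73 in Q111 with mGluR5, 5.55, 5.48 and 5.69 in Q20 without mGluR5 and 5.53, 6.06 and 5.78 in Q20 with mGluR5. The 3 arrays of Q111 with mGluR5 lay above all 9 others. The Q111 allele raised Aoah with mGluR5 (0.75 ± 0.13, adjusted p = 0.0144), and loss of mGluR5 lowered it in Q111 mice (-0.91 ± 0.13, adjusted p = 0.00361). The matching comparisons gave 0.06 ± 0.13 for the allele without mGluR5 (adjusted p = 0.932) and -0.22 ± 0.13 for receptor loss in Q20 mice (adjusted p = 0.948). The interaction, which tests whether these effects differ, was -0.69 ± 0.19 (adjusted p = 0.255) and was not called. Aoah was also called in the average effect of the allele (0.40 ± 0.09, adjusted p = 0.0466) and of receptor loss (-0.56 ± 0.09, adjusted p = 0.0134; 0.293% of all genes were called), in which it was the 1 member called.

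Means of Aoah outside Q111 with mGluR5 were not told from background, so these differences have no exact size, and the 3 high arrays are what carried the gene past the filter. The fall in Q111 mice held when each of the 12 arrays was left out, with adjusted p between 0.00172 and 0.0292. The rise with mGluR5 did not. It lost its call without Q111 with mGluR5 replicate 1 (0.78, adjusted p = 0.0538), without Q111 with mGluR5 replicate 3 (0.65, adjusted p = 0.0685), without Q20 with mGluR5 replicate 1 (0.62, adjusted p = 0.0696) and without Q20 with mGluR5 replicate 3 (0.74, adjusted p = 0.0757). The average effect of the allele lost its call on leaving out any array but replicate 2 of Q111 with mGluR5 or of Q20 with mGluR5, with values between 0.34 and 0.47 over the 12 fits and adjusted p between 0.0208 and 0.123. The average effect of receptor loss lost its call without Q20 without mGluR5 replicate 1 (-0.56, adjusted p = 0.0531). None of the 10 tested neighbours of Aoah on chromosome 13 was called. The neighbour with the largest difference was Gpx6, a glutathione peroxidase, at 1.15 ± 0.33 for the allele with mGluR5 (adjusted p = 0.212) and -1.30 ± 0.33 for receptor loss in Q111 mice (adjusted p = 0.19).

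Olfml3, a secreted olfactomedin protein that marks microglia, took opposite directions with receptor loss on the 2 alleles. Its signals were 9.35, 9.54 and 9.58 in Q111 without mGluR5 against 10.02, 9.87 and 9.61 in Q111 with mGluR5, a difference of -0.34 ± 0.13 (adjusted p = 0.838). In Q20 without mGluR5 they were 10.11, 10.16 and 9.99, against 9.38, 9.87 and 9.56 in Q20 with mGluR5, a difference of 0.48 ± 0.13 (adjusted p = 0.225). In both pairs the arrays of the groups did not overlap, although neither difference was called. The interaction was -0.83 ± 0.19 (adjusted p = 0.0896), also not called. The allele lowered Olfml3 without mGluR5 (-0.60 ± 0.13, adjusted p = 0.0471), and with mGluR5 the difference was 0.23 ± 0.13 (adjusted p = 0.833).

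The call for Olfml3 lay close to the threshold. It was lost without any 1 of the 3 arrays of Q111 without mGluR5 (adjusted p = 0.233, 0.119 and 0.105 without replicates 1, 2 and 3), without any 1 of the 3 of Q20 without mGluR5 (adjusted p = 0.175, 0.188 and 0.0782) and without Q20 with mGluR5 replicate 3 (adjusted p = 0.0745). Over these fits the difference stayed between -0.64 and -0.53. The interaction was called without Q111 with mGluR5 replicate 3 (-0.94, adjusted p = 0.0448) and without Q20 with mGluR5 replicate 2 (-0.96, adjusted p = 0.034). None of the 10 tested neighbours of Olfml3 on chromosome 3 was called.

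**Figure D1:**
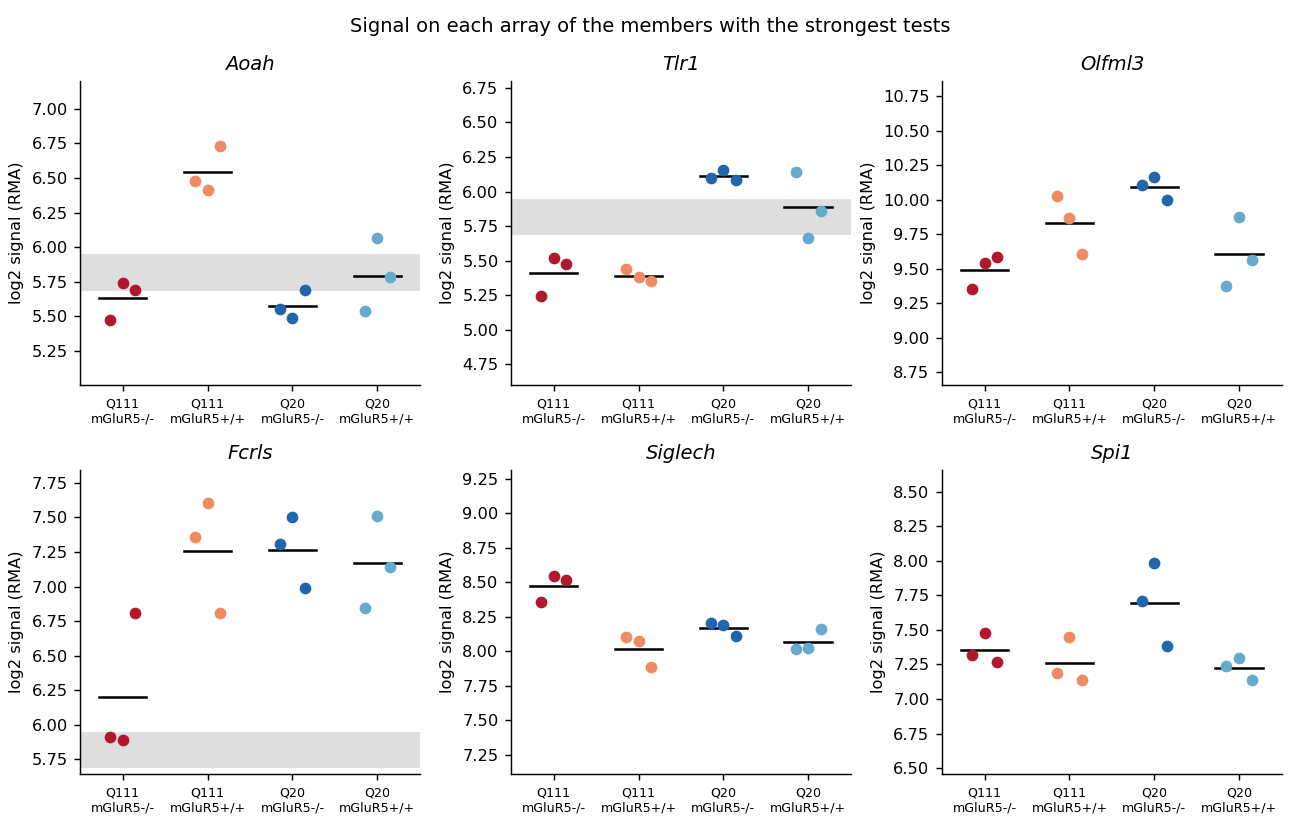
Log2 signal (vertical axis, 1 span for all 6 panels) of 6 members on each of the 12 arrays, with the 4 groups along the horizontal axis; points are arrays, black bars are means of 3 arrays and the grey band is the range of the 25th percentiles of the arrays. Aoah has all 3 arrays above the band in Q111 with mGluR5 and in no other group, all 6 Q111 arrays of Tlr1 lie below the band, and 2 of 3 arrays of Fcrls in Q111 without mGluR5 lie within it.

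The promoters of the called genes were read for the binding sequence of PU.1, the factor encoded by the member Spi1, and are shown beside those of C1qb and C1qc, neighbouring genes on chromosome 4 whose products join in 1 complex. The sequences are the 250 bases before the gene start from RefSeq (GRCm38.p6), written 5′ to 3′ on the strand of the gene, with GAGGAA on either strand in capitals, extended to GAGGAAGT (ACTTCCTC on the other strand) where that longer form is present.
Tlr1: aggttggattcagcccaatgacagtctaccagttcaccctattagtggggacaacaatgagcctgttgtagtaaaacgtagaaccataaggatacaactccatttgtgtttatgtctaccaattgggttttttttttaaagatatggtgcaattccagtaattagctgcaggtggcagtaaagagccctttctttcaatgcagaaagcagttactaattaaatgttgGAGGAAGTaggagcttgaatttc
Aoah: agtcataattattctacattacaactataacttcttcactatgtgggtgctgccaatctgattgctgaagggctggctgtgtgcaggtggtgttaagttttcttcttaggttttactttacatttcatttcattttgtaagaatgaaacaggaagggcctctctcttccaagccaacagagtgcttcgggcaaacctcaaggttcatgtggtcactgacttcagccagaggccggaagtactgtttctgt
Olfml3: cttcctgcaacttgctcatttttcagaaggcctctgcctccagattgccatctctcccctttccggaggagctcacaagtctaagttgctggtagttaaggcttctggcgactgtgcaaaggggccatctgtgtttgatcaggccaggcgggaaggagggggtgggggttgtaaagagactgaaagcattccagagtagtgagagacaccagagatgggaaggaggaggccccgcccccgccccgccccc
C1qb: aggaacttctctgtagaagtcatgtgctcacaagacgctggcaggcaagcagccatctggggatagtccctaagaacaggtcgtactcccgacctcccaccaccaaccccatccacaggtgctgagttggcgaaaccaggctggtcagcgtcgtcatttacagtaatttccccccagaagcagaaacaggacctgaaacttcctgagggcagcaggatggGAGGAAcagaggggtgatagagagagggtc
C1qc: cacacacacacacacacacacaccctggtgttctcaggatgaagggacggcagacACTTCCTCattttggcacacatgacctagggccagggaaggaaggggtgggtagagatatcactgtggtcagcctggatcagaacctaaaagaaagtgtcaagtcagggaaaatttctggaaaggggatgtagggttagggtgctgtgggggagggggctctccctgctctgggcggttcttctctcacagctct
These windows are chr5:64933559-64933808 on the minus strand for Tlr1, chr13:20793863-20794112 on the plus strand for Aoah, chr3:103738002-103738251 on the minus strand for Olfml3, chr4:136886201-136886450 on the minus strand for C1qb and chr4:136892915-136893164 on the minus strand for C1qc. Tlr1 has a further annotated start whose window held no match. Of the 39 members, 26 matched the promoter table, with 30 windows. GAGGAA or its reverse TTCCTC was in 17 of these windows (56.7%) and in 7638 of 32841 windows of all genes (23.3%). The longer GAGGAAGT, which contains GAGGAA, was in 2 windows of members, those of C1qc and Tlr1 (6.67%), and in 2.44% of all windows. The matches describe letters in these windows, and binding was not measured.

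The surface receptors and other markers of resting microglia were 11 members in all, of which Olfml3 alone was called. Fcrls, an Fc receptor-like protein of microglia, had the largest fold change of any member. Its signals were 5.91, 5.89 and 6.81 in Q111 without mGluR5, 7.36, 7.60 and 6.81 in Q111 with mGluR5, 7.31, 7.50 and 6.99 in Q20 without mGluR5 and 6.85, 7.51 and 7.14 in Q20 with mGluR5. Replicates 1 and 2 of Q111 without mGluR5 were low, and replicate 3 lay just below the lowest array of the other groups. The allele effect without mGluR5 was -1.07 ± 0.25 (adjusted p = 0.0607) and the effect of receptor loss in Q111 mice was -1.06 ± 0.25 (adjusted p = 0.134), so neither was called. Without Q111 without mGluR5 replicate 3 both were called, at -1.37 (adjusted p = 0.0104) and -1.36 (adjusted p = 0.017). The allele effect was also called without Q111 with mGluR5 replicate 2 (adjusted p = 0.0292) or replicate 3 (adjusted p = 0.0383). With all arrays kept it was called with an intensity trend in limma (adjusted p = 0.0388), with the arrays centred on their medians (adjusted p = 0.0478), with a filter at the median (adjusted p = 0.0433) and by the authors' criteria. Receptor loss in Q111 mice was called in a fit with each array's spread as a covariate (adjusted p = 0.0317) and by the authors' criteria. These criteria take an unadjusted p below 0.05 from an unmoderated linear model and a change of at least 1.5-fold. They are not corrected for the number of genes, so their calls are weaker evidence than an adjusted p.

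Siglech, a sialic acid-binding lectin of microglia, was highest in Q111 without mGluR5. It had 8.35, 8.54 and 8.52 in Q111 without mGluR5 against 8.10, 8.07 and 7.88 in Q111 with mGluR5, with no overlap. In Q20 without mGluR5 it had 8.21, 8.19 and 8.11, against 8.02, 8.02 and 8.16 in Q20 with mGluR5, with overlap. Receptor loss gave 0.45 ± 0.09 in Q111 mice (adjusted p = 0.0655) and 0.10 ± 0.09 in Q20 mice (adjusted p = 0.998), and the average of both was 0.28 ± 0.07 (adjusted p = 0.149). None of these was called. In other limma fits the difference in Q111 mice was called. These used quantile normalization (adjusted p = 0.0249), a filter at the median (adjusted p = 0.0385) or replicate number as a block (adjusted p = 0.0355). Each array's spread as a covariate also gave a call (adjusted p = 0.0119), and there the average was called (adjusted p = 0.033). Siglech lies on chromosome 7, as does Grm5, and strain alleles that travel with the knockout cannot be told apart from its effect.

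The other markers of resting microglia stayed within narrower bounds. Cx3cr1, the fractalkine receptor, had 9.32, 9.31 and 9.38 in Q111 without mGluR5, 9.26, 9.32 and 9.32 in Q111 with mGluR5, 9.49, 9.49 and 9.33 in Q20 without mGluR5 and 9.31, 9.18 and 9.20 in Q20 with mGluR5. Receptor loss in Q20 mice separated the arrays of its groups, by 0.21 ± 0.08 (adjusted p = 0.713). P2ry12, the ADP receptor that steers microglial processes, had 7.69, 8.02 and 7.70 in Q111 without mGluR5, 7.95, 8.12 and 7.87 in Q111 with mGluR5, 8.19, 8.15 and 7.79 in Q20 without mGluR5 and 7.83, 7.86 and 7.98 in Q20 with mGluR5. Its arrays overlapped in all 4 comparisons.

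Tmem119, a membrane protein used to tell microglia from other macrophages, had 8.24, 8.31 and 8.60 in Q111 without mGluR5, 8.51, 8.11 and 8.28 in Q111 with mGluR5, 8.43, 8.42 and 8.16 in Q20 without mGluR5 and 8.46, 8.41 and 8.36 in Q20 with mGluR5. Its fold changes ran only between -0.11 and 0.08 over the 4 comparisons, with overlap in each. Slc2a5, the fructose transporter of microglia, had 6.78, 6.84 and 6.60 in Q111 without mGluR5, 6.75, 6.87 and 6.56 in Q111 with mGluR5, 6.82, 7.12 and 6.84 in Q20 without mGluR5 and 6.93, 7.07 and 7.10 in Q20 with mGluR5. The allele effect with mGluR5 was -0.30 ± 0.11 (adjusted p = 0.481), with no overlap of the arrays. The nucleotide receptors P2ry13 and P2ry6, the lysophospholipid receptor Gpr34 and the selectin ligand Selplg were not called in any comparison. Gpr34 was above the 25th percentile on 3 of 12 arrays only.

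Among the genes that maintain the lineage, Spi1 was highest in Q20 without mGluR5. It had 7.32, 7.48 and 7.27 in Q111 without mGluR5, 7.19, 7.45 and 7.14 in Q111 with mGluR5, 7.71, 7.98 and 7.38 in Q20 without mGluR5 and 7.24, 7.30 and 7.13 in Q20 with mGluR5. Receptor loss in Q20 mice gave 0.47 ± 0.13 (adjusted p = 0.275) without overlap, and in Q111 mice 0.10 ± 0.13 (adjusted p = 1) with overlap. Csf1r had 8.87, 9.13 and 8.99 in Q111 without mGluR5, 8.95, 9.17 and 8.74 in Q111 with mGluR5, 9.38, 9.39 and 9.25 in Q20 without mGluR5 and 9.10, 9.09 and 9.14 in Q20 with mGluR5. Its allele effect was -0.35 ± 0.11 without mGluR5 (adjusted p = 0.225) and -0.25 ± 0.08 on average (adjusted p = 0.175), and the average was called without Q111 with mGluR5 replicate 2 (-0.30, adjusted p = 0.0288). Irf8 was within 0.26 of 0 in all 4 comparisons.

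The 3 chains of C1q, which starts the classical complement pathway, had no call in any comparison. C1qa had 8.58, 8.81 and 8.71 in Q111 without mGluR5, 8.74, 8.56 and 8.70 in Q111 with mGluR5, 9.03, 9.14 and 8.82 in Q20 without mGluR5 and 8.77, 8.71 and 8.81 in Q20 with mGluR5. C1qb had 8.79, 8.77 and 8.88 in Q111 without mGluR5, 8.99, 8.81 and 9.04 in Q111 with mGluR5, 9.23, 9.41 and 9.01 in Q20 without mGluR5 and 8.98, 9.02 and 9.06 in Q20 with mGluR5. In both genes the arrays of Q111 without mGluR5 lay below those of Q20 without mGluR5. The differences were -0.30 ± 0.10 for C1qa (adjusted p = 0.292), -0.40 ± 0.10 for C1qb (adjusted p = 0.101) and -0.26 ± 0.18 for C1qc (adjusted p = 0.712). With mGluR5 they were -0.09 ± 0.10 for C1qa, -0.07 ± 0.10 for C1qb and -0.18 ± 0.18 for C1qc, about 1 standard error from 0 or less, and the interaction was not called for any of the 3. For the allele without mGluR5, C1qb was called when replicate 3 of Q20 without mGluR5 was left out (-0.51, adjusted p = 0.0469).

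Over 8 pairs of members whose products work together, 2 pairs varied together across the 12 arrays. C1qa and C1qb had a Pearson r of 0.857 (permutation p = 0.00071, adjusted over the 8 pairs 0.00568) and a Spearman rho of 0.58 (permutation p = 0.0519, adjusted 0.207). C1qa and C1qc had an r of 0.772 (permutation p = 0.00362, adjusted 0.0145) and a rho of 0.455 (permutation p = 0.141, adjusted 0.225). Without the 2 arrays whose C1qa lay farthest from its median, r was 0.491 (adjusted p = 0.592) and 0.312 (adjusted p = 0.805). This removal also narrows the range of C1qa and leaves fewer arrays, so it cannot tell whether both relations rest on those arrays. On deviations from the group means r was 0.774 (adjusted p = 0.0225) and 0.718 (adjusted p = 0.0326). C1qb and C1qc had an r of 0.594 (permutation p = 0.0408, adjusted 0.109). It was 0.685 without the 2 arrays whose C1qb lay farthest from its median (adjusted permutation p = 0.246). In the other 5 pairs r ran from -0.54 for Cd14 and Tlr4 to 0.52 for Fcgr3 and Fcer1g, with 0.0873 for Trem2 and its adaptor Tyrobp, and no adjusted permutation p of theirs was below 0.13 on the signals themselves. On deviations from the group means the lowest was 0.0688, for Itgam and Itgb2 and for Cd14 and Tlr4, whose r were -0.63 and -0.613. Tlr4 was below the 25th percentile on all 12 arrays, so its values in this pair are not told from background. With the interquartile range of the array removed, Fcgr3 and Fcer1g had an r of 0.692 (adjusted permutation p = 0.0304).

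**Figure D2:**
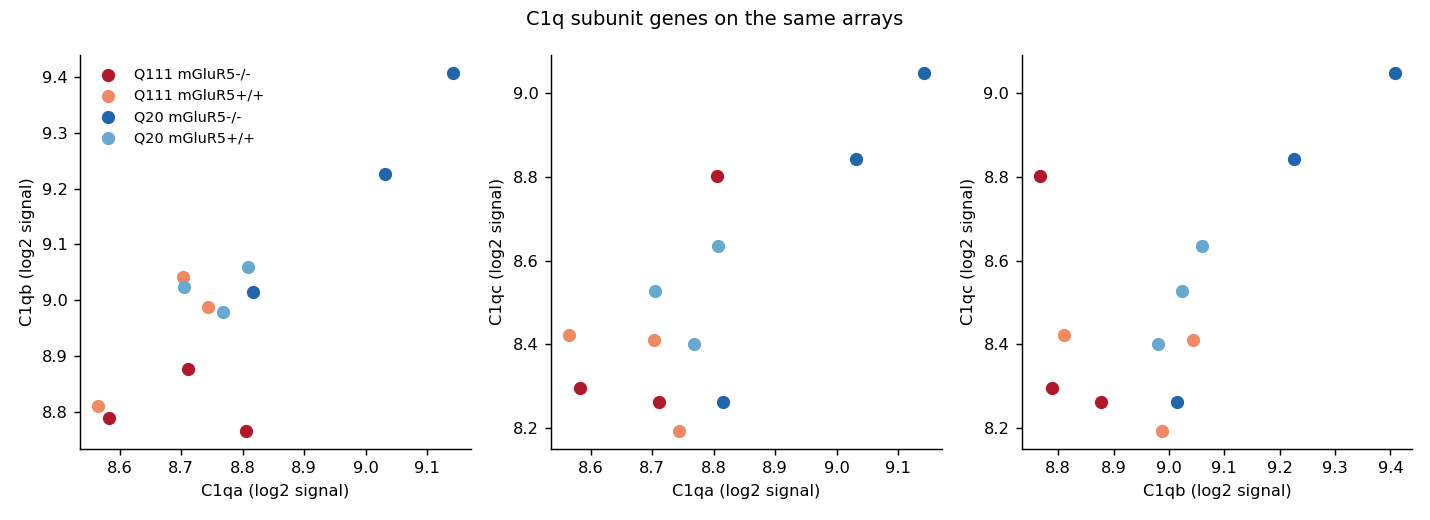
Log2 signals of the 3 C1q chains against each other (both axes log2 signal, 1 point per array, coloured by group). C1qa and C1qb have an r of 0.857 over 12 arrays, and 2 arrays of Q20 without mGluR5 lie at the top right of each panel.

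The activating and inhibitory receptors and their adaptors comprised Trem2, a lipid receptor, Tyrobp and Fcer1g, signalling adaptors, Fcgr3, an antibody receptor, and Cd33, an inhibitory lectin. All 5 were higher without mGluR5 in both Q111 and Q20 mice, with medians of 0.14 and 0.20, and none was called. Of all 16721 tested genes, 8803 were higher without mGluR5 in Q111 mice and 9530 in Q20 mice. Trem2 had 8.71, 8.88 and 8.86 in Q111 without mGluR5 against 8.53, 8.27 and 8.59 in Q111 with mGluR5, a difference of 0.35 ± 0.12 (adjusted p = 0.665) without overlap. In Q20 without mGluR5 it had 8.38, 8.67 and 8.56, against 8.57, 8.25 and 8.65 in Q20 with mGluR5, a difference of 0.05 ± 0.12 (adjusted p = 0.998) with overlap. Fcgr3 gave -0.33 ± 0.15 for the allele without mGluR5 (adjusted p = 0.513), where its arrays did not overlap, and -0.32 ± 0.15 with mGluR5 (adjusted p = 0.728).

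The leukocyte surface and cytoskeleton genes were Aif1 (Iba1), an actin-binding protein, the integrin chains Itgam and Itgb2, the phosphatase Ptprc (CD45), the tetraspanin Cd53 and the lysosomal protein Laptm5. Aif1 had 6.63, 6.25 and 6.38 in Q111 without mGluR5, 6.69, 6.54 and 6.73 in Q111 with mGluR5, 6.62, 6.48 and 6.60 in Q20 without mGluR5 and 6.20, 6.45 and 6.54 in Q20 with mGluR5. The arrays of Q111 with mGluR5 lay just above those of Q20 with mGluR5, a difference of 0.26 ± 0.11 (adjusted p = 0.689). Cd53 gave 0.27 ± 0.16 for the allele with mGluR5 (adjusted p = 0.838) and -0.31 ± 0.16 without it (adjusted p = 0.577), and its interaction was -0.57 ± 0.22 (adjusted p = 0.75). None of the 6 was called in any comparison.

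The lysosome and antigen presentation genes Cd68, Ctss (cathepsin S) and Cd74, the class II invariant chain, also had no call, and Cd74 was above the 25th percentile on 6 of 12 arrays. Among the other genes of Toll-like receptors and lipopolysaccharide handling, Ly86, a partner of the receptor-like protein Cd180, gave -0.47 ± 0.15 for the allele without mGluR5 (adjusted p = 0.232). Tlr2 gave -0.30 ± 0.15 for receptor loss in Q111 mice (adjusted p = 1), where its arrays did not overlap. Cd14, the co-receptor that hands lipopolysaccharide to Tlr4, gave -0.24 ± 0.10 for the allele with mGluR5 (adjusted p = 0.603). Tlr7 and Tlr13, sensors of RNA, were above the 25th percentile on 8 and 7 of 12 arrays and were not called.

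As a group, the members leaned lower with the Q111 allele without mGluR5 and higher with receptor loss in Q20 mice. These comparisons share the arrays of Q20 without mGluR5. For the allele without mGluR5, 30 of 38 members had a negative difference, against 9481 of the 16721 tested genes. The median was -0.16 against -0.02 over all tested genes. For the allele with mGluR5, 23 members were negative, against 9046 of all genes, with a median of -0.03 against -0.01. For receptor loss in Q20 mice 27 were positive, against 9530 of all genes, with a median of 0.15 against 0.02. In Q111 mice 24 were positive, against 8803 of all genes, with a median of 0.03 against 0.01.

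Leaving out single arrays moved these medians, and only that for receptor loss in Q111 mice changed sign. The median stayed between -0.18 and -0.08 for the allele without mGluR5. For receptor loss in Q20 mice it stayed between 0.09 and 0.21. Without replicate 2 of Q20 without mGluR5, the median was -0.08 for the allele without mGluR5 and 0.09 for receptor loss in Q20 mice. For receptor loss in Q111 mice, it was -0.03 with 16 of 38 positive without replicate 2 of Q111 without mGluR5, and -0.01 with 19 positive without replicate 3 of Q111 with mGluR5. It was 0.07 without replicate 1 of Q111 without mGluR5 and 0.08 without replicate 2 of Q111 with mGluR5. For the allele with mGluR5, it was -0.06 without replicate 1 of Q20 with mGluR5 and -0.0041, with 19 positive, without replicate 3 of that group.

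Counts of members whose arrays did not overlap are read against the same count over all genes. For the allele without mGluR5 they were 13 of 38 members (34.2%), 10 of them lower, against 19.1% of all genes in either direction and 13% lower. For the allele with mGluR5 they were 6 (15.8%), 2 higher and 4 lower, against 9.69% of all genes. For receptor loss in Q20 mice they were 6, all higher, against 12.8% of all genes in either direction and 7.89% higher. For receptor loss in Q111 mice they were 6, 2 higher and 4 lower, against 7.46% of all genes. The interaction called 0 members by the main limma fit, against 0.437% of all genes. The unmoderated linear model also called 0 members, but it called 19 genes in all, against 73 by limma. Olfml3 was called in the interaction with an intensity trend (adjusted p = 0.0445), a replicate block (adjusted p = 0.0358) or each array's spread as a covariate (adjusted p = 0.0202). By an unadjusted limma p below 0.05 the interaction held 8 of 38 members, against 5.37% of all genes.

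**Figure D3:**
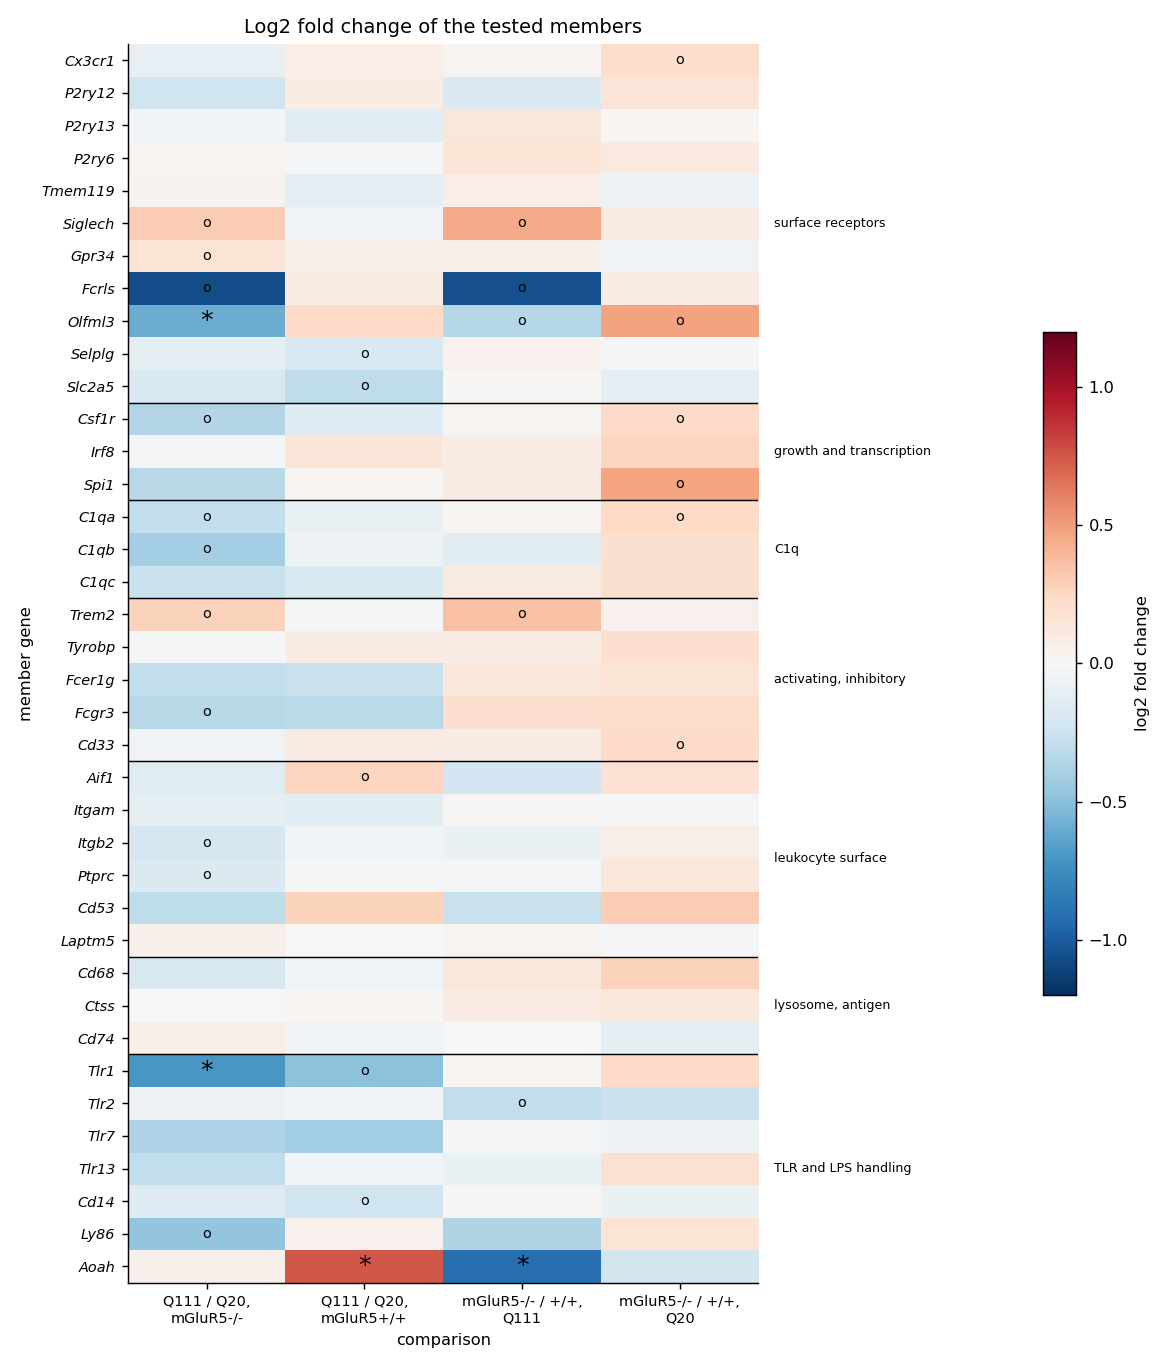
Log2 fold change (colour scale) of the 38 tested members (rows, grouped by role) in the 4 comparisons of 2 groups (columns, with the first named genotype over the second); stars are calls at an adjusted p below 0.05 and circles are uncalled differences whose 3 and 3 arrays do not overlap. Stars fall on Tlr1 and Olfml3 in the first column and on Aoah in the middle columns. In the first column 30 of 38 members are negative, against 9481 of the 16721 tested genes.

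The mean over the 38 tested members set 1 array apart from the rest. It was 7.61, 7.77 and 7.73 in Q111 without mGluR5, 7.73, 7.82 and 7.67 in Q111 with mGluR5, 7.87, 8.02 and 7.76 in Q20 without mGluR5 and 7.72, 7.77 and 7.81 in Q20 with mGluR5. Replicate 2 of Q20 without mGluR5 was highest, with 32 of 38 members above their own mean, and also had the widest interquartile range, 2.95. Replicate 1 of Q111 without mGluR5 was lowest, with 6 of 38 members above their own mean, at an interquartile range of 2.74 that was 7th of 12. Over the 12 arrays, the mean of the members tended to be higher where the interquartile range was wider. With this range as a covariate in the fit, Tlr1, Olfml3 and Aoah kept their calls in the comparisons of 2 groups. In these, 5 further calls appeared, of C1qb, Tlr1 with mGluR5, Spi1, Fcrls and Siglech. The covariate also raised the calls over all genes. They were 266 in place of 96 for the allele with mGluR5 and 150 in place of 46 for receptor loss in Q111 mice. For the allele without mGluR5, the covariate moved the members' median from -0.16 to -0.10, with 12 in place of 8 members positive. Without replicate 2 of Q20 without mGluR5, 13 in place of 8 members were positive for the allele without mGluR5, and 5 were without replicate 3 of that group.

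**Figure D4:**
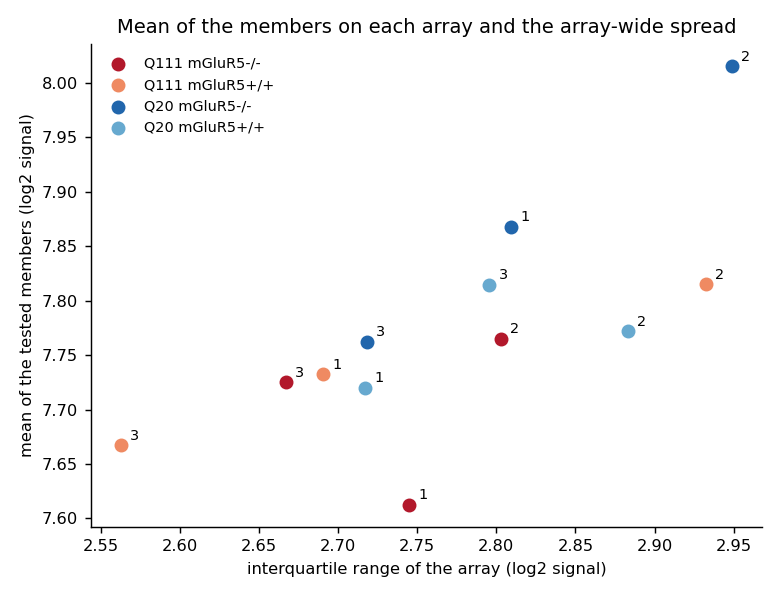
Mean log2 signal of the 38 tested members on each array (vertical axis) against the interquartile range of all values of the array (horizontal axis, log2 signal), with points coloured by group and labelled by replicate. Replicate 2 of Q20 without mGluR5 is highest on both axes, at 8.02 and 2.95, and replicate 1 of Q111 without mGluR5 has the lowest mean, 7.61, at a middling range.

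Effects that share no arrays were set side by side across the 38 members, as a description over genes that share their arrays. The allele effects without and with mGluR5 had a Pearson r of 0.193 over members and 0.271 over all genes. The same sign was found in 21 of 38 members (55.3%), against 60.2% of all genes. The effects of receptor loss in Q111 and in Q20 mice had an r of 0.151 over members and -0.0156 over all genes. Here too 21 of 38 members (55.3%) had the same sign, against 51.0% of all genes.

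Of 114 further genes of these pathways, 88 were tested: other Toll-like receptors and their signalling, other complement genes, ligands of microglial receptors, activation genes and further microglial genes. Ccl3, a chemokine of activated microglia, was called lower with the Q111 allele. It had 6.62, 6.88 and 6.91 in Q111 without mGluR5, 7.03, 6.85 and 6.97 in Q111 with mGluR5, 7.46, 7.22 and 7.42 in Q20 without mGluR5 and 7.29, 7.04 and 7.21 in Q20 with mGluR5. The difference was -0.56 ± 0.11 without mGluR5 (adjusted p = 0.0212), -0.23 ± 0.11 with it (adjusted p = 0.728) and -0.39 ± 0.08 on average (adjusted p = 0.017), and its 6 Q111 arrays were all below its 6 Q20 arrays.

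C3ar1, the receptor of the complement fragment C3a, was called higher with receptor loss in Q20 mice. It had 7.25, 7.13 and 7.19 in Q111 without mGluR5, 7.31, 7.43 and 7.12 in Q111 with mGluR5, 7.79, 7.62 and 7.42 in Q20 without mGluR5 and 6.94, 7.03 and 7.08 in Q20 with mGluR5. Receptor loss gave 0.59 ± 0.11 in Q20 mice (adjusted p = 0.0258) and -0.10 ± 0.11 in Q111 mice (adjusted p = 1), and the interaction was -0.69 ± 0.15 (adjusted p = 0.0815), not called. C5ar1, the receptor of C5a, gave 0.49 ± 0.11 in Q20 mice (adjusted p = 0.0783) and -0.05 ± 0.11 in Q111 mice (adjusted p = 1). Like Siglech, C5ar1 lies on the chromosome of Grm5, where strain alleles that travel with the knockout cannot be told apart from the knockout's effect. No other gene of the 88 was called in any of the 7 comparisons.

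Markers of other cells that share genes with microglia or neighbour them were read beside these results. Of 8 listed markers of macrophages at the borders of the brain, 7 were tested and Ms4a7 was below the 25th percentile on all arrays. Their mean signal per array ran from 6.20 to 6.30 in Q111 without mGluR5, 6.16 to 6.31 in Q111 with mGluR5, 6.27 to 6.36 in Q20 without mGluR5 and 6.18 to 6.31 in Q20 with mGluR5. Of 8 listed markers of monocytes and neutrophils, 7 were found, and Ccr2, S100a8, Ngp and Plac8 were below the 25th percentile on all arrays. The mean of the 3 tested ran from 6.03 on an array of Q20 with mGluR5 to 6.54 on 1 of Q111 with mGluR5. Of 8 listed lymphocyte markers, 7 were found, and Cd3d, Cd79a and Ms4a1 were below the 25th percentile on all arrays. The mean of the 4 tested ran from 6.90 in Q111 with mGluR5 to 7.36 in Q111 without mGluR5. Of the vascular markers, 8 of 8 had negative differences for the Q111 allele both without mGluR5 (median -0.27) and with it (median -0.20), and 0 were called by limma, with 4 and 1 at an unadjusted p below 0.05. Their mean per array ran from 7.46 to 7.69 in Q111 without mGluR5, 7.37 to 7.64 in Q111 with mGluR5, 7.76 to 7.83 in Q20 without mGluR5 and 7.60 to 7.78 in Q20 with mGluR5. Their part in the members' differences was not tested. No astrocyte, oligodendrocyte, projection neuron or choroid plexus marker of the lists was called in any comparison. For the allele without mGluR5, 5 of 7 tested choroid plexus markers were negative, the lowest at -1.49. With mGluR5, 5 of 7 were positive. Receptor loss gave 7 of 7 negative in Q111 mice and 5 of 7 positive in Q20 mice, the highest at 0.88. The mean of the 7 was highest on replicate 2 of Q20 without mGluR5 (6.88). Every array of that group had a mean above those of Q111 without mGluR5. A part of choroid plexus tissue in the members' differences was not tested.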

How the data were processed

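The deposited table holds log2 signals of 35556 probe sets that the authors made with RMA in Partek, per the submitters' processing notes; the series description names Partek Genomics Suite 6.5. RMA subtracts background, equalizes arrays and summarizes probes, which can understate differences of dim sets. Platform annotation gave 1 symbol to 21789 sets, several to 1621 and none to 12146. Genes above the 25th percentile of their array on at least 3 arrays were tested (16721). Precision is limited by having 3 arrays a group, and arrays give no read counts.

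limma 3.58.1 in R 4.3.3 fitted 1 mean per group over 12 arrays (8 residual degrees of freedom, prior 6.88) with 7 contrasts: 4 between 2 groups, their interaction and 2 average effects. All p-values are two-sided and adjusted by Benjamini-Hochberg over the tested genes. The interaction is the allele effect without minus that with mGluR5. Pairs of members were tested with 100000 permutations. The fit was tested on simulated data.

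Members, lists and rules were chosen with earlier results of these data known. Per-array values are given for called members, the 3 members with the smallest p of each comparison and 7 defining microglial genes. Alternatives covered the test, the authors' criteria (an unadjusted p and at least 1.5-fold), the block, array weights and normalization. They also covered the array-wide spread, the filter, the probe set, the groups fitted and leaving out each array. In 3 sets Itgam is listed beside Rpl35; these were not used. RefSeq (GRCm38.p6) gave promoters and gene order. Plots used matplotlib 3.10.9 in Python 3.11.15.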

Additional observations from a re-analysis of the deposited data

How the results depend on the processing

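The calls of Aoah, Olfml3 and Tlr1 kept their direction under all settings run for them, while several calls were lost. Members called are counted below for the allele without mGluR5 (2), the allele with mGluR5 (1), receptor loss in Q111 (1), receptor loss in Q20 (0), the interaction (0), and the average effects of the allele (2) and of receptor loss (1). Leaving out 1 array gave 1 to 3, 0 to 2, 1 to 2, 0, 0 to 1, 1 to 3 and 0 to 1. The unmoderated linear model left Tlr1 in the average effect as the 1 call, with 0 elsewhere. The replicate block gave 4 (with Fcrls and Ly86), 2, 2, 1, 1, 2 and 1. The labels give only a replicate number, and what same-numbered arrays share is not stated. Their deviations correlated across genes between 0.414 and 0.54 for replicate 2, and between -0.0357 and 0.445 for replicates 1 and 3. The interquartile range as a covariate gave 3, 2, 3, 1, 1, 2 and 2. Array weights gave 18, 0, 1, 11, 1, 4 and 1, with weights from 0.178 to 12.3 in a fit that did not converge, so no call is drawn from them. For the allele without mGluR5, no filter gave 1, the intensity trend and the authors' criteria gave 3, with Fcrls added, and under median centring Fcrls replaced Olfml3. For the allele with mGluR5, quantile normalization gave 2, and a filter at the median and a fit of the compared groups alone gave 0. For receptor loss in Q111, the authors' criteria and quantile normalization gave 2, and under a filter at the median Siglech replaced Aoah. For the interaction, the intensity trend gave 1 and the authors' criteria 3. For the average allele effect, the intensity trend, the authors' criteria, median centring, quantile normalization and no filter gave 1, and a filter at the median 0. For average receptor loss, the authors' criteria and a filter at the median gave 0. A filter at the median removes Tlr1 and Aoah from testing. With all arrays kept, genes called over the whole table ranged from 91 to 3270 (148), 35 to 266 (96), 23 to 150 (46), 19 to 2120 (50), 19 to 165 (73), 51 to 488 (221) and 17 to 170 (49). Of the 2 related pairs, 0 remained without the 2 outermost arrays. Other causes of lost calls were not tested.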
